A study of Mus musculus with 2 samples.

Results

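The stretch of mouse chromosome 1 from Tsn to Tcfcp2l1 (mm9, chr1:120180001-120650000) is 470 kb long and lies between the 2 strong insulation minima at 120170001 and 120650001 of a capture Hi-C map around En1. Its members were all pairs of 10 kb bins with both ends in the stretch and at least 20 kb apart. There were 1035 such pairs, of 111629 at that minimum distance in the whole map. None involved a bin under the cut for poor coverage given below, but chr1:120480001-120490000, with 5607 read pairs, lay just above that cut. The same rule at 5 kb gave 4095 pairs, of which 4008 had a balanced value; the rest involved chr1:120480001-120485000, a bin in Clasp1 that had 0 read pairs. The comparison was between overlapping classes: 210 pairs inside the Clasp1 gene body, 525 pairs across a weaker insulation minimum at chr1:120430001-120440000, and 254 pairs reaching Tcfcp2l1. A bin was assigned to a gene by its middle, so the bin with the Clasp1 start, whose middle lies before the gene, counted as below Clasp1. Below and above mean lower and higher coordinates.

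The series concerns the control of En1 in limb development, and the data used here are 1 map that merged 2 capture Hi-C samples. Both were fore- and hindlimb tissue of wild-type mouse embryos at stage E10.5, dispersed to single cells and fixed in 2% PFA. Chromatin was cut with DpnII (GATC), religated and enriched with designed capture probes. Both sample titles carry the replicate number 2, no age, strain or sex beyond the stage was given, and fore- and hindlimb cells and all cell types are pooled. There was no second condition and no value per sample, so nothing below has a replicate error or a p-value. Every interval is an exact Poisson 95% interval of the read pairs and covers counting error only; PCR copies of a molecule are not independent, so the errors may be larger.

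Hi-C joins DNA ends that were close in the nucleus, and the number of read pairs between bins falls with their distance along the chromosome. Domains are stretches whose bins meet each other more often than bins outside, and an insulation minimum is a bin over which few contacts pass. Many domain borders and loop ends hold sites of CTCF, a zinc finger protein that stops cohesin as it extrudes DNA, most often at sites that face each other. The stretch holds 4 protein-coding genes over 1 kb. Tsn encodes translin, a nucleic acid binding protein (chr1:120195094-120207709, minus strand). Mki67ip encodes a nucleolar protein that binds the Ki-67 antigen (chr1:120218416-120230399, plus strand). Clasp1 encodes a protein that tracks and stabilises microtubule plus ends (chr1:120285635-120506009, plus strand). Tcfcp2l1 encodes a transcription factor of the CP2 family known from pluripotent cells and kidney (chr1:120524522-120581744, plus strand). The annotation also lists 2 protein-coding models under 1 kb, 2900060B14Rik and Gm11102, both inside Clasp1. Contact frequency says nothing of whether these genes were transcribed, and no expression was measured here.

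The sequences below are CTCF motif matches around Mki67ip, in the Clasp1 bins from 120350001 to 120410000 and in the boundary bins, read from the mm9 reference. The motif searched was the 14-letter core of the CTCF consensus, on both strands, with at most 1 mismatch. Each line gives 24 bases from 5′ to 3′ along the strand of the match, with the motif in capitals.
Mki67ip start, chr1:120218323-120218336, plus strand, exact: tgtggCCAGTAGGTGGCGCtcgag
Beyond the Mki67ip end, chr1:120232594-120232607, plus strand, 1 mismatch: atataCCAGTAGGTGGCAAcagag
Clasp1 intron, chr1:120362808-120362821, minus strand, 1 mismatch: ggaggCCAGAAGAGGGCAGcagat
Clasp1 intron, chr1:120389588-120389601, minus strand, 1 mismatch: ttcagCCACCAGAGGGAACacttt
Clasp1 intron, chr1:120395083-120395096, minus strand, 1 mismatch: acagaCCACCAGGGAGCAGcactc
Clasp1 intron, chr1:120398884-120398897, minus strand, 1 mismatch: ggaggCCAGCAGAGGGCATtggct
Clasp1 intron, chr1:120402527-120402540, plus strand, 1 mismatch: ttatgCCAATAGGGGGCAGaattg
Lower boundary bin, chr1:120172955-120172968, plus strand, 1 mismatch: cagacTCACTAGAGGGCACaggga
Upper boundary bin, chr1:120656338-120656351, minus strand, exact: tcttgCCAGCAGGTGGCAGtagat
The first of these was the only exact match in the stretch. It lay 80 bp before the Mki67ip start, outside any protein-coding gene, and was singled out after its position was seen. The exact match in the upper boundary bin lay on the opposite strand. Of the 5 matches between 120350001 and 120410000 in Clasp1, 4 lay on the minus strand and 1 on the plus strand, each with 1 mismatch. That interval was delimited after its contacts were seen, and its 10 kb bins from 120350001 and 120370001 held no match. The rest of Clasp1 leaned the same way, with matches at 120303347, 120330298 and 120505551 on the minus strand and at 120332890 on the plus strand. Within the stretch 14 matches were found, 5 on the plus and 9 on the minus strand, of which 9 lay inside Clasp1, 4 below it, 1 above Tcfcp2l1 and 0 inside Tcfcp2l1. At most 1 mismatch was met in 12 of the 47 bins (25.5%), against 101 of 475 bins in the map (21.3%), and an exact match in 1 of 47 (2.13%) against 14 of 475 (2.95%). Such shares are close to those of the map. A match is a description of the letters, not evidence that the protein is bound there, and no match was found in the minimum bin.

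The stretch held 182396 read pairs in its member pairs, 2.81% of the 6484654 in the map. Among pairs at 20 to 460 kb it held 7.86% of the read pairs in 5.12% of the bin pairs. These shares are not corrected for distance, and the stretch has more pairs at short distances, 45 at 20 kb and 1 at 460 kb. Against the expected count at each distance, described below, the value was 1.03. Single pairs had 7 to 1485 read pairs, with a median of 106. At 5 kb the median was 26 and 5 pairs had 0, so single 5 kb pairs carry little precision. Total read pairs per 10 kb bin ranged from 5607 (chr1:120480001-120490000) to 44435 (chr1:120410001-120420000), both in Clasp1, with a median of 20607 against 22376 in the map. GC content per bin was 41.5 to 49.0% and DpnII sites numbered 13 to 39. Over the 47 bins, the bin total had a Spearman rho of 0.31 with DpnII sites and 0.21 with GC content; these bins share 1 map and neighbouring bins overlap in their partners.

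Contacts were read against an expected count: the map's mean balanced (KR) value at the same distance, times the balancing factors of both bins. Observed over expected is the ratio of the summed read pairs to that sum, so 1 is the map's average at that distance. One distance needs care. At exactly 200 kb the map's mean balanced value was 121, against 83.1 when poorly covered bins (under 25% of the median total) were left out, a quotient of 1.46. At the other distances of the stretch that quotient was 0.943 to 1.07. A single pair of poorly covered bins outside the stretch, 119720001 with 119920001, had 98 read pairs, a balanced value of 15216 and 27.7% of the sum at that distance. Values at 200 kb are therefore given both ways, and the plots leave that distance out.

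The stretch as a whole met itself at about the map's average: 1.03 times expected (1.03 to 1.04), and 1.08 without the poorly covered bins. Within it the contacts were uneven. Pairs with both ends below the minimum had 74044 read pairs and 1.13 times expected (1.13 to 1.14). Pairs with both ends above it had 56647 read pairs and 1.07 (1.06 to 1.07). Pairs across it had 46032 read pairs and 0.872 (0.864 to 0.880). Pairs inside Clasp1 had 60248 read pairs and 0.946 (0.939 to 0.954). Pairs reaching Tcfcp2l1 had 42270 read pairs and 0.981 (0.972 to 0.990). The class reaching Tcfcp2l1 moved to 1.02 without the poorly covered bins, so its side of 1 depends on that choice. With an expected count from distance alone, all 3 classes lay above 1, Clasp1 at 1.17, across the minimum at 1.03 and Tcfcp2l1 at 1.12. The side of 1 therefore depends on the balancing. The order of the classes also depends on weighting and distance: as an unweighted mean Clasp1 was lowest, at 0.897 against 0.924 across the minimum, and at 140 to 180 kb it had 0.652 against 0.768.

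**Figure D1:**
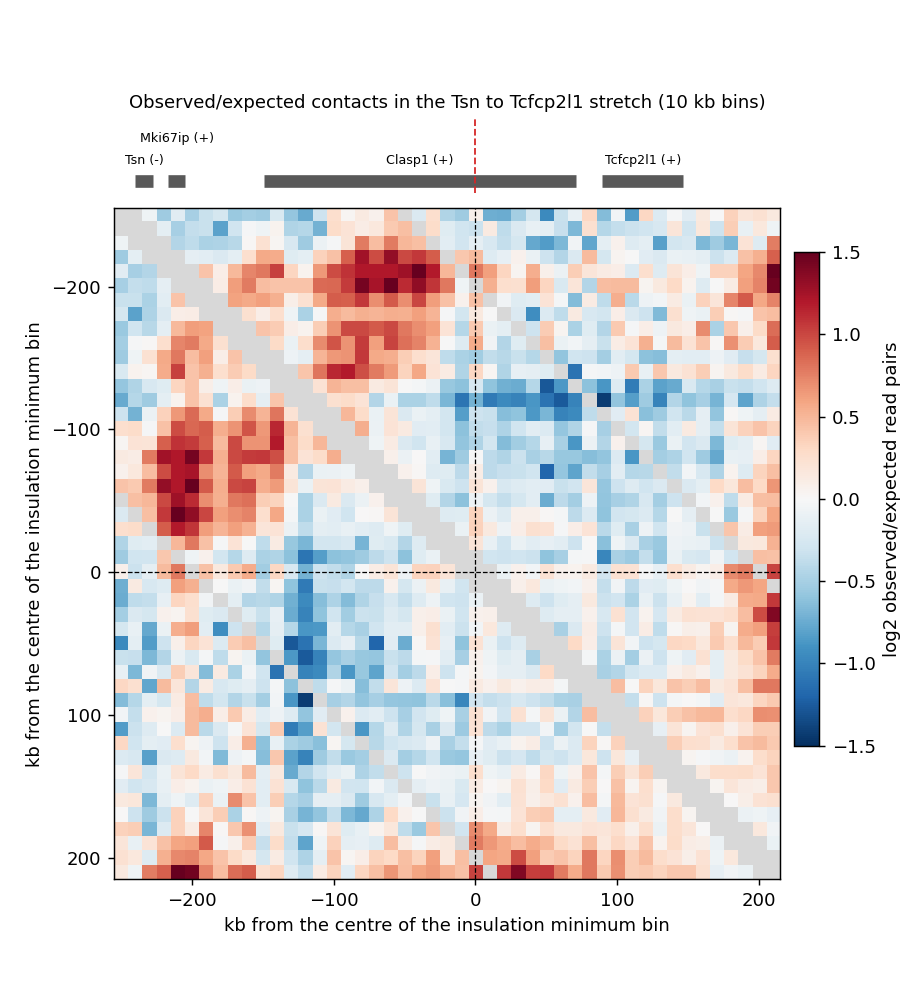
Map of log2 observed over expected read pairs for every pair of 10 kb bins in the stretch, both axes in kb from the centre of the insulation minimum (dashed lines), with gene bodies and strands as bars on top. Red is above the map's average and blue below; grey marks pairs under 20 kb and the pairs at 200 kb, which are left out. The red block pairs bins around Mki67ip with the Clasp1 bins 30 to 80 kb below the minimum, and the blue bands mark Clasp1 bins about 120 kb below it.

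The highest class value was that of the Tsn and Mki67ip end with the lower part of Clasp1. Bins below Clasp1, where Tsn and Mki67ip lie, met Clasp1 bins below the minimum in 28645 read pairs over 153 bin pairs, 1.38 times expected (1.36 to 1.39). The same bins met the part of Clasp1 above the minimum in 4332 read pairs over 77 pairs, 0.874 times expected (0.848 to 0.900). Without the poorly covered bins these 2 values were 1.45 and 0.925. Their median single pair had 170 read pairs in the first group and 47 in the second. With Tcfcp2l1 they had 3115 read pairs over 66 pairs and 0.946 (0.913 to 0.980). With the bins above Tcfcp2l1 they had 3837 read pairs over 77 pairs and 1.15 (1.11 to 1.19), although those pairs lay at a median distance of 380 kb. Summed over the 11 bins below Clasp1, contacts were thus below the average between the minimum and the Tcfcp2l1 end, and above it at the far end. Single bins differed from this sum. The bin chr1:120220001-120230000, in Mki67ip, had log2 observed over expected of -0.08 to 0.61 with the Clasp1 bins above the minimum. With all partners across the minimum that bin had 1.23 times expected.

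Inside Clasp1 the contacts were lower for longer distances. At 20 to 50 kb the 74 pairs had 40609 read pairs and 1.01 times expected (0.997 to 1.02), at the map's average within counting error. At 60 to 90 kb the value was 0.923 (0.907 to 0.939), at 100 to 130 kb 0.778 (0.756 to 0.800), and at 140 to 180 kb 0.652 (0.623 to 0.682). The last group of 30 pairs had 1893 read pairs. At 190 to 230 kb the 6 remaining pairs had 0.505 (0.442 to 0.574), and 0.598 without the poorly covered bins. Bins at the ends of the Clasp1 body therefore met each other less often than bins at that distance elsewhere in the map, while pairs of neighbouring Clasp1 bins did not. Clasp1 pairs with both ends below the minimum had 1.01 times expected (1.00 to 1.02), those with both ends above it 0.931 (0.908 to 0.955), and those across it 0.825 (0.812 to 0.837).

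Contacts reaching Tcfcp2l1 differed by partner. The 10 pairs inside the gene had 6223 read pairs and 1.10 times expected (1.07 to 1.13). With the 7 bins above it, which hold no other protein-coding gene, Tcfcp2l1 had 15076 read pairs over 41 pairs and 1.15 (1.13 to 1.17), with 36 of the 41 pairs above 1. With Clasp1 it had 16145 read pairs over 132 pairs and 0.820 (0.807 to 0.832), with 17 of 132 above 1. In the whole stretch 471 of 1035 pairs lay above 1, not matched for distance. The part of Clasp1 above the minimum, nearer to Tcfcp2l1, had 0.871 with that gene (0.852 to 0.891), and the part below the minimum 0.761 (0.744 to 0.779). Without the poorly covered bins the last 2 values were 0.902 and 0.813. At matched distances of 60 to 90 kb, Tcfcp2l1 had 1.19 (1.16 to 1.23) with the bins above it and 0.905 (0.877 to 0.933) with Clasp1. The gene thus met the side above it more often than the Clasp1 side, by more than counting error.

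**Figure D2:**
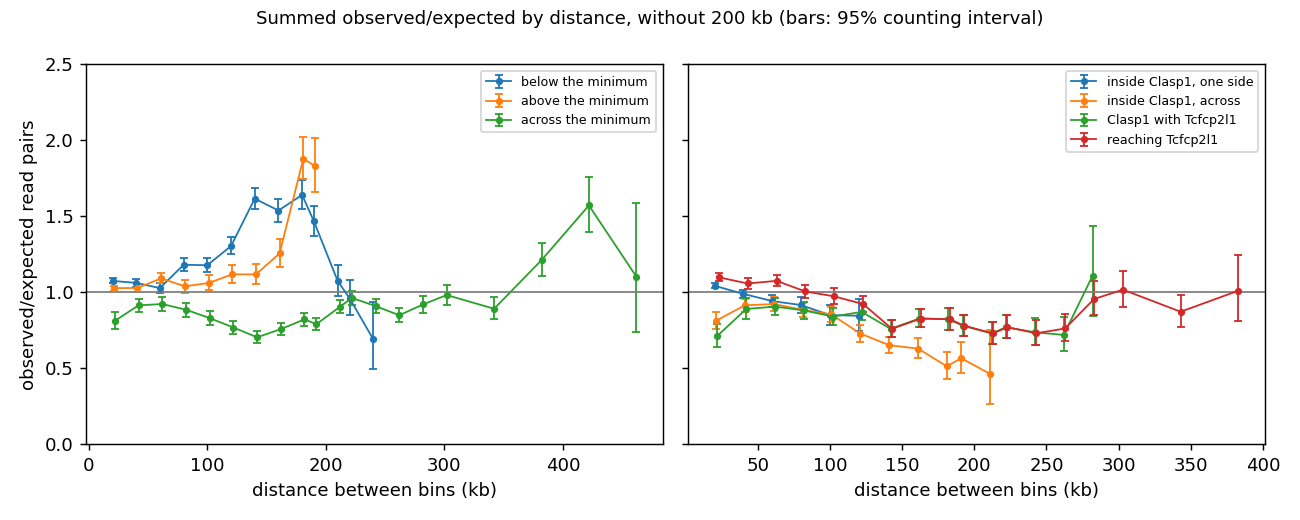
Summed observed over expected read pairs against the distance between bins in kb, at 20 distances without 200 kb, with 95% counting intervals; the left panel splits pairs by the minimum and the right panel shows Clasp1 and Tcfcp2l1 classes. Pairs below the minimum rise to 1.64 at 180 kb while pairs across it lie at 0.704 at 140 kb and at 1.57 at 420 kb.

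The minimum itself was chosen from the insulation of this map, so low values across it describe the choice and are no support for it. The insulation score, the log2 mean balanced contact between the 150 kb on either side relative to the median bin, was -0.36 there with a counting error (SE) of 0.01. That was 10th lowest of the 13 minima with a prominence of at least 0.2 in the map. The minima that bound the stretch scored -0.94 at 120170001 and -0.73 at 120650001. Its position was not sharp: the bin 30 kb below, chr1:120400001-120410000, scored -0.35. With windows of 100 and 200 kb that bin was the lowest inner bin (inner bins lie at least 100 kb from both limits), at -0.38 and -0.23, and with 50 kb it was chr1:120510001-120520000, just beyond the Clasp1 end, at -0.23. The highest inner score at every window was at chr1:120310001-120320000, 0.40 with 150 kb, near the Clasp1 start. From raw counts the score of the minimum was 0.10. The minimum bin itself had 12532 read pairs, under the stretch median of 20607. It had 13 DpnII sites, the lowest number in the stretch, which the Tcfcp2l1 start bin shared. The score averages pairs between the bins on either side, so the pairs of the minimum bin itself are not in it.

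Across the minimum, observed over expected was 0.790 of that on one side (0.781 to 0.798). By distance this ratio was 0.855 at 20 to 50 kb, 0.821 at 60 to 90 kb, 0.656 at 100 to 130 kb and 0.509 at 140 to 180 kb. At 190 to 230 kb it was 0.723, or 0.703 without the poorly covered bins. Inside Clasp1 this contrast was smaller. There the ratio was 0.967 at 60 to 90 kb (0.932 to 1.002) and 0.946 at 100 to 130 kb (0.888 to 1.007), both within counting error of 1. At 20 to 50 kb it was 0.871 there (0.847 to 0.896), from 10 pairs across. In the 100 to 130 kb band the 92 one-sided pairs of the whole stretch had 1.19 times expected and the 10 within Clasp1 had 0.809. When each of the 27 bins at least 100 kb from both limits was used in turn to divide the stretch, the ratio was lowest at chr1:120400001-120410000, 0.771 (0.763 to 0.780), and lay between 0.771 and 0.797 for all bins from 40 kb below the minimum to 10 kb above it. It was highest at chr1:120300001-120310000, 1.29 (1.27 to 1.30).

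**Figure D3:**
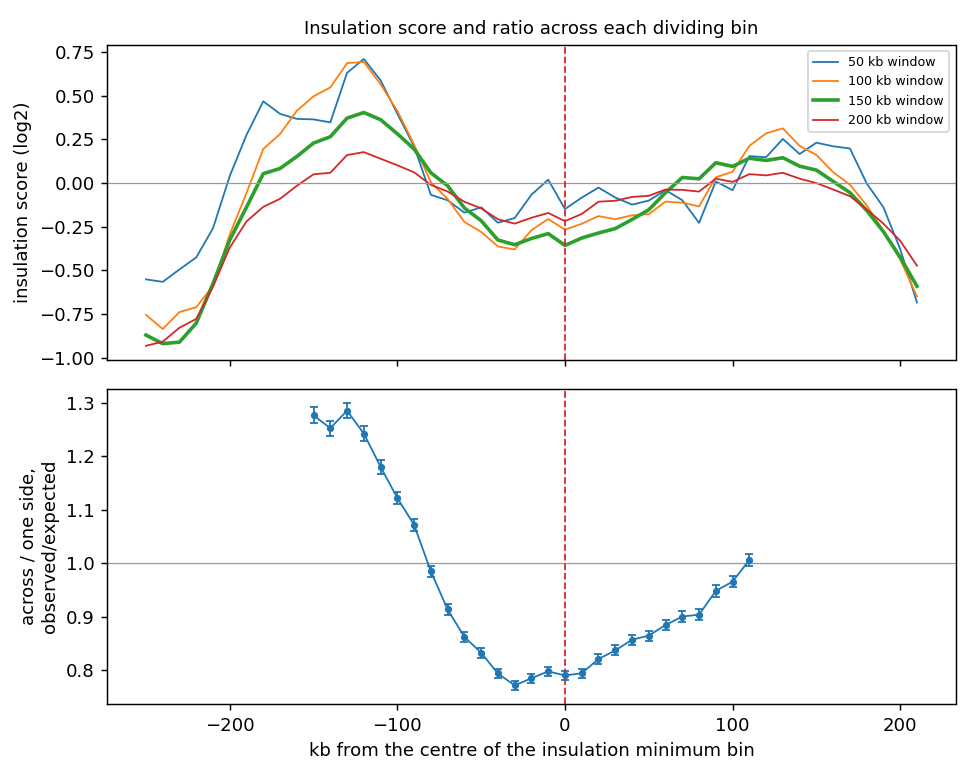
Insulation score (log2, top) of each 10 kb bin for 4 window sizes, and the ratio of observed over expected across each dividing bin to that on one side (bottom, bars are 95% counting intervals), against kb from the centre of the minimum. With the 150 kb window the scores of the minimum and of the bin 30 kb below it are -0.36 and -0.35, and the ratio lies between 0.771 and 0.797 from 40 kb below the minimum to 10 kb above it.

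Enriched pairs were those with at least 10 read pairs and a lower interval bound above 1.5. They numbered 55 of 1034 in the stretch (5.32%), against 836 of 18226 in the map at the same distances (4.59%), so the count for the whole stretch is near the background. By class, 45 of 276 pairs below the minimum were enriched (16.3%), 6 of 190 above it (3.16%), 5 of 210 inside Clasp1 (2.38%), 3 of 524 across the minimum (0.573%) and 0 of 254 reaching Tcfcp2l1. The Clasp1, Tcfcp2l1 and crossing shares are under the map's, which was not matched to each class for distance. With a bound above 1.2, 9 pairs reaching Tcfcp2l1 were called, 7 of them with the bins above the gene. Depleted pairs, with an upper bound under 1/1.5, numbered 14 of 1035 (1.35%), against 9.69% of pairs in the map. The stretch was delimited by insulation minima of the same map, which leaves depleted pairs outside, so nothing is read from that share. Without the poorly covered bins 62 pairs of the stretch were enriched (6%), 54 of them among the 55, against 4.68% of the map. Then 7 were depleted (0.676%), against 8.33%.

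The 55 enriched pairs formed 4 clusters when pairs within 2 bins were joined. The first held 43 pairs between chr1:120200001-120300000 and chr1:120320001-120410000, with 11585 read pairs and 2.09 times expected. Of these, 38 joined bins below Clasp1 to Clasp1 and 5 lay inside Clasp1. Its leading pair joined chr1:120230001-120240000, with the Mki67ip end and the second of the printed matches, to chr1:120370001-120380000 in Clasp1, 140 kb away. The Clasp1 bin of this pair held no match. That pair had 207 read pairs against 66.7 expected, 3.10 times expected (2.69 to 3.56). The lower bin had a total of 9587 read pairs and a balancing factor of 0.493, and with an expected count from distance alone the pair had 1.86. Its 4 pairs of 5 kb bins had 34, 39, 58 and 76 read pairs, so no single 5 kb pair made the excess.

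Within this cluster the strongest block was Mki67ip with Clasp1. The bins chr1:120220001-120240000 and chr1:120350001-120410000 gave 12 pairs with 126 to 408 read pairs, a median of 257.5 and a sum of 3178. Their sum was 2.42 times expected (2.34 to 2.51), and the single pairs ranged from 2.11 to 3.10. All 12 were enriched, and the block was delimited after its values were seen. At 5 kb, the values rose in steps towards the Mki67ip start. With Clasp1 bins from 120320001 to 120410000, the 5 kb bins from 120200001 to 120205000 had 519 read pairs and 1.07 times expected (0.981 to 1.17). The next, within which Tsn starts, had 927 and 1.34 (1.25 to 1.43), and the following one, with no gene, 1332 and 1.68 (1.59 to 1.77). The bin from 120215001 to 120220000, with the Mki67ip start and the exact CTCF match, had 887 read pairs and 2.44 (2.28 to 2.61), the highest of the 21 bins below Clasp1. The next 4 bins, up to 120240000, had 2.00 to 2.29. Of these, 120220001 had 2.29 (2.14 to 2.45), 120230001 2.26 (2.11 to 2.41) and 120235001 2.14 (1.97 to 2.33). Their intervals overlap that of the start bin, while 120225001 had 2.00 (1.91 to 2.09). The bins from 120240001 to Clasp1 had 1.23 to 1.78.

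On the Clasp1 side the values rose and fell over several bins. With the bins chr1:120220001-120240000, the 5 kb Clasp1 bins from 120310001 and 120315001 had 1.04 (0.843 to 1.28) and 1.14 (0.980 to 1.32). The 5 bins from 120320001 to 120345000 had 1.49 to 2.03. The bins from 120345001 to 120405000 had 1.66 to 2.72, with the highest value at chr1:120390001-120395000, 327 read pairs against 120 expected (2.44 to 3.04). That highest bin held no match, and the bins of this range with a match had 1.98 to 2.49. The bin chr1:120400001-120405000, which holds the plus-strand match in Clasp1, had 267 read pairs and 2.16 (1.91 to 2.44). Beyond it the values were 1.95 at 120405001, 1.51 at 120410001, 1.43 at 120415001, 0.872 (0.701 to 1.07) at 120420001 and 1.00 (0.788 to 1.26) at 120425001. The last 2 bins meet their partners at about 200 kb, and without the poorly covered bins they had 0.993 and 1.27.

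The second cluster held 7 pairs between Clasp1 bins from 120430001 to 120500000 and the last bins of the stretch, chr1:120630001-120650000, at 150 to 210 kb. They had 68 to 321 read pairs and 2.07 times expected as a sum. The pair with 68 involved the sparsely covered bin chr1:120480001-120490000 and had 2.08, but 0.679 with distance alone. The leading pair, chr1:120460001-120470000 with chr1:120640001-120650000, had 321 read pairs against 122 expected, 2.62 (2.34 to 2.93), with 52 to 105 read pairs in each of its 5 kb pairs. At 5 kb the bins from 120460001 to 120475000 had 2.11 to 2.40 with these last bins, and the bins from 120410001 to 120430000 1.16 to 1.34. Tcfcp2l1 lay between the ends of these pairs, and no cluster reached it. Its own pairs with the bins above it also lay above the average, at 1.15, but 0 of the 41 pairs met the bound for a call.

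The third cluster joined the Mki67ip end to the upper end of the stretch. Its 3 pairs linked chr1:120220001-120250000 with chr1:120620001-120650000 at 380 to 420 kb and had 56, 83 and 120 read pairs, 2.42 times expected as a sum. The leading pair, Mki67ip with chr1:120640001-120650000, had 120 read pairs against 42.6 expected, 2.82 (2.33 to 3.37), and 2.76 without the poorly covered bins. Of the 3 pairs, 1 (chr1:120240001-120250000 with chr1:120620001-120630000, 83 read pairs) had 1.83 without those bins (1.45 to 2.26) and was then not called. Of the 120 read pairs 56 fell in 1 of the 4 pairs of 5 kb bins, and the others had 17, 21 and 26. The gene-free bin at that upper end lies next to the boundary bin with the exact match on the minus strand. The Mki67ip bin of the leading pair held no match. The bin with the exact match at the Mki67ip start, chr1:120210001-120220000, had 77 read pairs with chr1:120640001-120650000, 1.86 (1.47 to 2.33), and was not called. The fourth cluster was 2 pairs of chr1:120220001-120230000 with bins at the Clasp1 start, 270 and 411 read pairs, of which the leading pair had 2.03 (1.80 to 2.29), and 1.40 with distance alone, not called. These calls depend on the expected count: with distance alone 32 of the 55 pairs were among the calls. At 5 kb, 52 of the 55 held an enriched pair, but the 5 kb counts are the same read pairs and are not separate evidence.

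The lowest pairs lay on Clasp1 bins near its start. The bin chr1:120300001-120310000 met chr1:120500001-120510000, the Clasp1 end, in 30 read pairs against 92.0 expected, 0.326 (0.220 to 0.465). That pair lay at 200 kb, and without the poorly covered bins its value was 0.475 (0.320 to 0.678), no longer called. The bin chr1:120310001-120320000 met the Tcfcp2l1 start bin in 31 read pairs against 82.9 expected, 0.374 (0.254 to 0.531), which was also the weakest pair reaching Tcfcp2l1. The same bin met chr1:120490001-120500000 in Clasp1 in 51 read pairs against 122, 0.417 (0.311 to 0.549), and 0.569 with distance alone. Across the minimum this bin had the lowest value of all 46 bins, 954 read pairs and 0.572 times expected (0.536 to 0.610), while its total of 19430 read pairs was near the median. The strongest pair inside Clasp1, chr1:120290001-120300000 with chr1:120340001-120350000, had 313 read pairs and 2.28 (2.03 to 2.54); with distance alone it had 1.199 and was not called. The strongest reaching Tcfcp2l1 joined it to chr1:120630001-120640000 in 193 read pairs at 1.63 (1.41 to 1.87) and was not called.

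**Figure D4:**
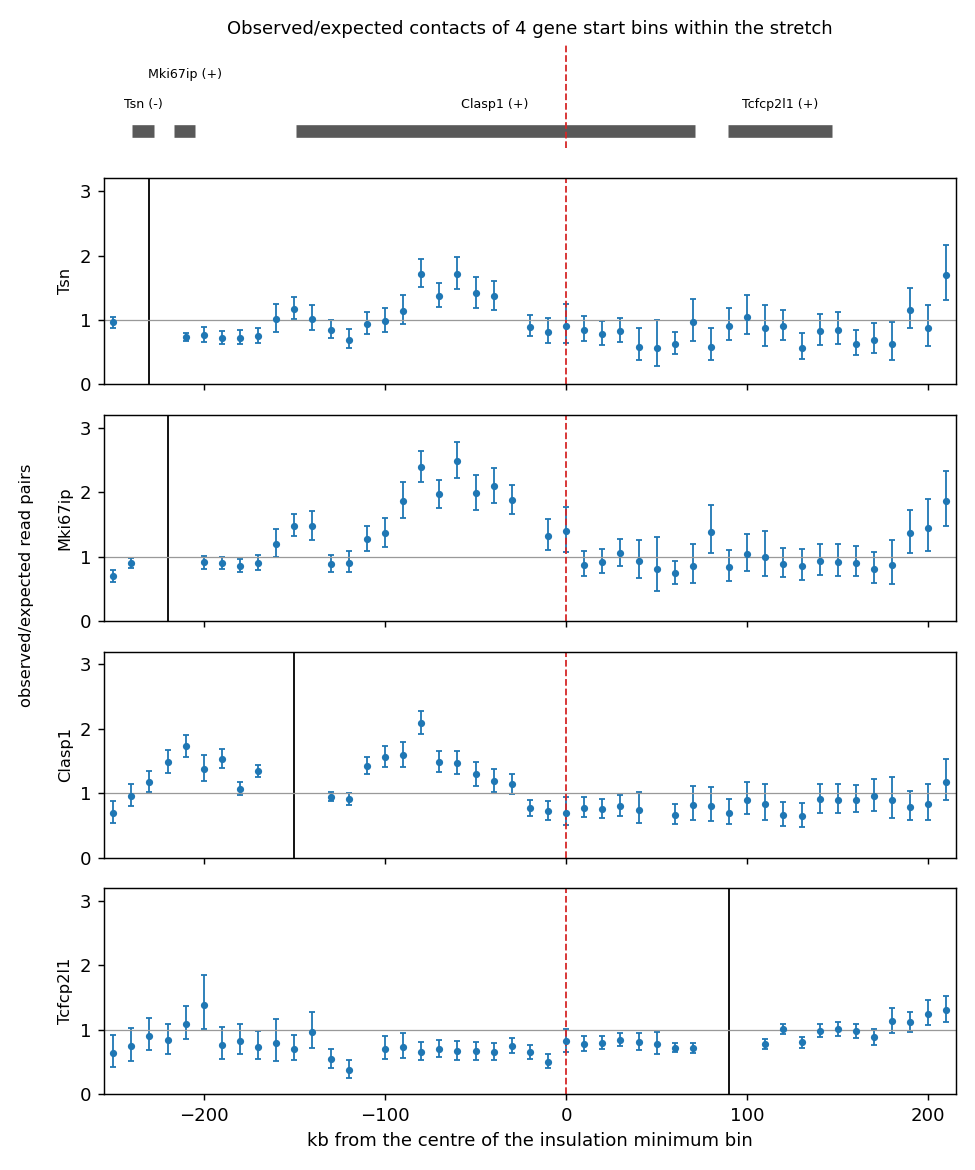
Observed over expected read pairs of the bins with the starts of Tsn, Mki67ip, Clasp1 and Tcfcp2l1 (black lines) with each partner bin of the stretch at least 20 kb away, against kb from the minimum (dashed), without the partner at 200 kb; bars are 95% counting intervals. Mki67ip reaches 2.48 and Clasp1 2.09 at partners 60 and 80 kb below the minimum, while the Tcfcp2l1 partner with the highest lower bound, at the upper end, has 1.31.

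The 4 gene starts differed in reach. The Tsn start bin had 4992 read pairs in the stretch and 0.922 times expected (0.896 to 0.948), and the Mki67ip start bin, its neighbour, had 6520 and 1.16 (1.13 to 1.19). With Clasp1 the Tsn bin had 2386 read pairs and 1.04 (1.00 to 1.09), and the Mki67ip bin 3481 and 1.43 (1.38 to 1.48). The strongest partner of the Tsn bin was chr1:120350001-120360000 with 249 read pairs and 1.71 (1.51 to 1.94). That of the Mki67ip bin was chr1:120370001-120380000 with 304 read pairs and 2.48 (2.21 to 2.78), 1 of its 7 enriched partners. Bins 10 kb apart thus differed beyond counting error in the same Clasp1 partners.

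The Clasp1 start bin had 8375 read pairs in the stretch, 1.16 times expected (1.13 to 1.18), and its strongest partner was chr1:120350001-120360000 in its own gene with 520 read pairs and 2.09 (1.92 to 2.28). Across the minimum it had 1204 read pairs, 14.4% of its read pairs in the stretch against 20.9% expected, and 0.796 times expected (0.752 to 0.842). The Tcfcp2l1 start bin had 6861 read pairs and 0.824 (0.805 to 0.844), and 0 enriched partners. Across the minimum it had 1733 read pairs and 0.688 (0.656 to 0.722), 25.3% of its read pairs against 30.2% expected. With Clasp1 it had 3109 read pairs and 0.710 (0.686 to 0.736). The partner with its highest lower bound was chr1:120640001-120650000 with 180 read pairs and 1.31 (1.13 to 1.52). The start bins of the 2 short models inside Clasp1 had their strongest partner in the same Mki67ip bin, chr1:120230001-120240000, at 2.70 for 2900060B14Rik and 3.10 for Gm11102; these bins belong to the block above and are not separate evidence.

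Over single bins, 27 of 47 lay above the map's average with all partners in the stretch by their lower bound with this expected count, and 18 below it by their upper bound. Bin sums hold many read pairs, so their counting intervals are narrow. The same shares were not computed over the bins of the map, so nothing is read from these counts or those below. Highest were chr1:120230001-120240000 with 1.38 (1.34 to 1.42), chr1:120220001-120230000 with 1.37 and chr1:120290001-120300000 with 1.36. Lowest was chr1:120420001-120430000 in Clasp1 with 0.809 (0.791 to 0.826), next to the minimum bin, followed by the Tcfcp2l1 start bin. With only partners across the minimum, 34 of 46 bins were below and 4 above. The minimum was chosen for few contacts across it, so the 34 describe that choice. The 4 were both bins of chr1:120220001-120240000 around Mki67ip with 1.23 and 1.24 and both bins of chr1:120630001-120650000 with 1.21 and 1.42. The bins that met more than average across the minimum were thus around Mki67ip, 40 to 60 kb inside the lower limit, and at the upper end. The lowest 3 bins of the stretch had 0.822 to 0.905 across it. Observed over expected of a bin had a Spearman rho of 0.05 with its GC content, 0.05 with its DpnII sites and -0.24 with its total, over 47 bins of 1 map.

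**Figure D5:**
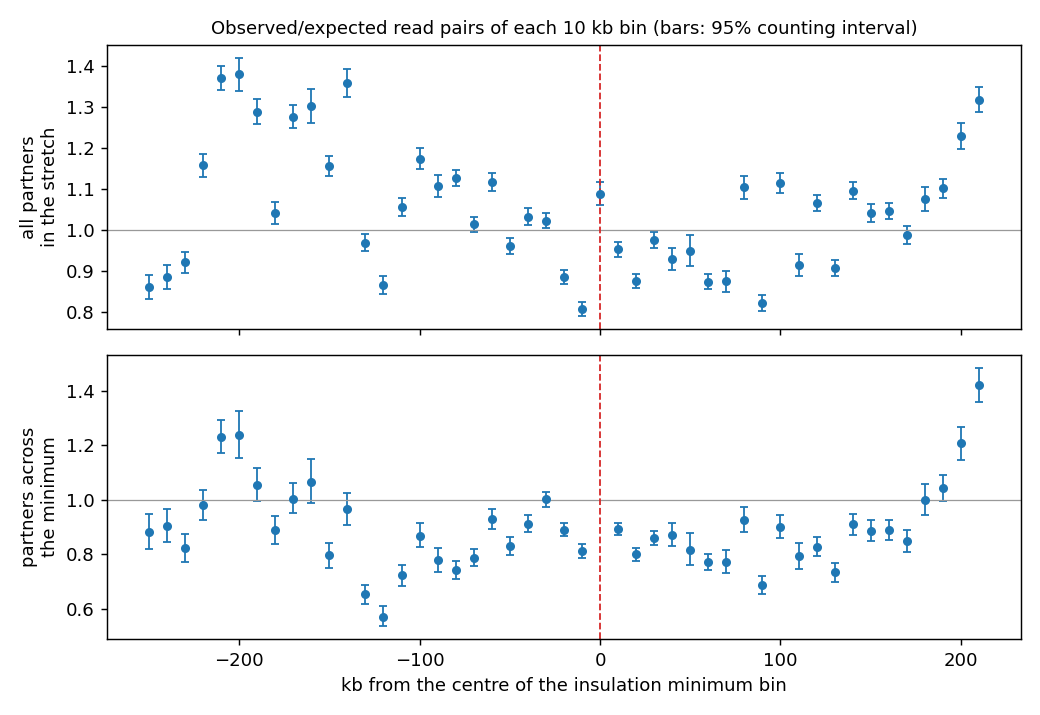
Observed over expected read pairs of each 10 kb bin of the stretch with all partners in it (top) and with partners across the minimum (bottom), against kb from the centre of the minimum, with 95% counting intervals. In the lower panel the highest bins are around 200 kb on either side of the minimum, at 1.24 and 1.42, and the lowest is at 0.572, 120 kb below it.

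The limits of the stretch were read from this map, so values at its edges are a description. The last bin outside below it had 3705 read pairs in all, too few for a firm value, and 0.996 times expected (0.939 to 1.06) with the stretch, against 0.862 (0.832 to 0.892) for the first bin inside. Above, the last bin inside had 1.32 (1.29 to 1.35) and the first bin outside, with the exact match on the minus strand, 1.40 (1.37 to 1.43). On both sides the bin just outside was the insulation minimum itself. Bins beyond those minima were not compared here, so these values cannot show whether contacts with the stretch fell past its limits. At the limit of distance, the mean balanced value in the stretch was 1763 at 10 kb, which the rule left out, and 471 at 30 kb.

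The fall of contacts with distance was near that of the map. The slope of log10 balanced value on log10 distance from 20 to 300 kb was -0.92 in the stretch (-0.93 to -0.91 by counting error), against -0.86 over the map. Over 20 to 100 kb the order turned, with -0.93 in the stretch and -0.96 in the map. From 20 to 300 kb the mean balanced value fell 12.3-fold in the stretch and 11.6-fold in the map. Of the 3 domains between insulation minima nearest in length, that of Ralb and Ptpn4 (chr1:121370001-121900000) had a slope of -0.83, that of Steap3 and Marco (chr1:122050001-122460000) -0.58 and that of Inhbb (chr1:120990001-121360000) -0.62; 1 further domain as long as the last was not used. Dividing each at its own lowest inner bin gave a ratio across to one side of 0.992 (0.981 to 1.003), 1.37 (1.36 to 1.38) and a value of 1.19 to 1.21, against 0.790 in the stretch. Their shares of enriched pairs were 2.58%, 13.6% and 8.25%. The stretch contains a called minimum and the other domains by their definition do not, so its lower ratio follows from the choice, and the differences were not tested.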

How the data were processed

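Capture Hi-C of 2 wild-type E10.5 limb samples was deposited by the authors as 1 merged map. Raw counts of read pairs per pair of bins were summed over the merged libraries by the authors, per the deposited files' names. The signal values are those counts after KR matrix balancing by the authors at each bin size, as deposited. Tables at 10 kb and, as an alternative, 5 kb were used. The deposited files' names record HiCUP and a mapping quality of at least 30; Bowtie2 2.3.4.1, Juicer 1.7.6, SAMtools and mm9 are per the submitters' processing notes. The raw 10 kb counts equalled the sums of the 5 kb counts. Expected counts, their exact Poisson intervals, insulation scores (150 kb window) and decay slopes were computed with Python 3.11.15, numpy 2.4.6 and scipy 1.17.1, and the code was tested on simulated data. The expected count assumes that balancing corrects bin coverage; capture probe positions were not used here.

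The stretch, its minimum, the classes and the lists were chosen with earlier results of these data known. Named pairs were the leading pair of each cluster of enriched pairs (6 at most), the 3 most depleted pairs, and the strongest and weakest pair of each class. Alternatives were bin size, an expected count from distance alone or from the stretch alone, poorly covered bins left out, the minimum distance, weighting, gene overlap, thresholds, windows and raw counts.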

Additional observations from a re-analysis of the deposited data

How the results depend on the processing

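With 1 merged map neither sample could be left out. No paired analysis was possible because the files hold no column per sample. In the order all pairs, inside Clasp1, across the minimum and reaching Tcfcp2l1 (main 1.03, 0.946, 0.872, 0.981), observed over expected was 1.00, 0.927, 0.858 and 0.930 with 5 kb bins, 1.11, 1.17, 1.03 and 1.12 with distance alone, which turned the last 3 above 1, and 1.08, 0.985, 0.911 and 1.02 without the poorly covered bins, which turned the last above 1. Unweighted means gave 1.05, 0.897, 0.924 and 0.938, and the decay of the stretch alone 0.884, 0.838 and 0.926 for the last 3. At 50 kb or more Clasp1 had 0.871 and Tcfcp2l1 0.938; any overlap gave 0.959 for Clasp1. The ratio across to one side (0.790) was 0.802 with 5 kb bins, 0.874 with distance alone, 0.744 at 50 kb or more, 0.813 with the decay of the stretch, 0.773 unweighted and 0.733 for distances up to 200 kb, an alternative chosen after seeing the data. The decay slope (-0.92) was -0.94 from raw counts and -0.93 over 20 to 100 kb. The insulation score of the minimum (-0.36) was -0.15, -0.27 and -0.22 with windows of 50, 100 and 200 kb, -0.31 at 5 kb and 0.10 from raw counts. The 55 enriched pairs became 143 at a bound of 1.2, 16 at 2, 135 with distance alone and 136 pairs at 5 kb. The causes were not tested. Over the 8 main results, 34 alternative values moved, 5 reversed in sign or in side of 1, and 8 stayed the same. Over 9 named pairs and 27 alternatives, 7 values moved beyond the counting interval and 20 did not. A pair with 30 read pairs has an interval of about 0.220 to 0.465 around 0.326, which limits what single depleted pairs show.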
